A study of Mus musculus with 6 samples.

Results

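Ion channel genes made up 82 of the 7788 genes on the splicing array, and 156 of its 13002 alternative events. They were taken by gene symbol: potassium channels (*Kcn*), voltage-gated calcium channels (*Cacn*), sodium channels (*Scn*), hyperpolarization-activated channels (*Hcn*), chloride channels and transporters (*Clcn*), transient receptor potential channels (*Trpc*, *Trpm* and *Trpv*), ryanodine receptors (*Ryr*), inositol trisphosphate receptors (*Itpr*) and acid-sensing channels (*Accn*). *Trpc6* and events inside the congenic interval on chromosome 19 were left out by the same rule, and 0 of the 156 events lay in that interval. Of the 82 genes, 50 had 1 event, 15 had 2 and 17 had 3 or more, with at most 8 in 1 gene. The symbols also took *Itprip*, *Scnm1* and *Trpc4ap*, which encode no channel subunit. Their events are counted in the totals of ion channel events below and form a role of their own.

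Ion channels set the firing of neurons. Voltage-gated sodium channels carry the upstroke of the action potential, voltage-gated potassium channels repolarize the membrane, and voltage-gated calcium channels couple electrical activity to transmitter release and gene expression. Many of these genes have long transcripts with several promoters, mutually exclusive exons and short cassette exons, and alternative splicing of the pore-forming and auxiliary subunits is a textbook source of functional variety in the brain. In general, cassette exons can change voltage sensing, inactivation or binding of partners, and alternative starts and ends can change the cytoplasmic termini of a channel.

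Whole-brain RNA from mice of a B6.CAST congenic line was hybridized to 6 Affymetrix MJAY arrays, which carry probes for exons and exon junctions. The 3 *Nxf1* CAST animals were homozygous for the CAST allele of *Nxf1*, an mRNA export factor gene, together with the linked CAST segment of chromosome 19, and the 3 *Nxf1* B6 animals were homozygous for the B6 allele. Each animal had a same-sex littermate of the other genotype, in 2 female pairs and 1 male pair. The first pair was 46 days of age, the second 23 (*Nxf1* CAST) and 22 (*Nxf1* B6) days, and the third 23 days, with no treatment named for either genotype. The comparison asks whether the *Nxf1* allele alters alternative processing, here in genes outside the congenic interval. Because the CAST segment differs along with *Nxf1*, the allele and its linked segment cannot be told apart.

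For each event the table lists the intensity of an exclusion (skipping) path and of an inclusion path in set A and in set B, as 1 value per set. Where 2 intensities of a path are given together, the first is that of set A and the second that of set B. Intensities in the whole table ran from 43 to 13185. The measure used below is the log2 change of the exclusion to inclusion ratio, set B over set A, so that a value above 0 means relatively more exclusion in set B. For alternative starts, alternative ends and mutually exclusive exons, exclusion is only the label of a path. Which start, end or exon that path stands for was not determined. Set B is likely the *Nxf1* CAST set, because the table's header defines its own score as mutant over wild type and the methods define it as *Nxf1* CAST over *Nxf1* B6, but the table does not give the sets by genotype. No value per array was used here, so no spread between animals and no test is given, and past the threshold means only an absolute log2 change over 0.5, a 1.41-fold change of the ratio. Intensities of different probes are not compared with each other, and in whole brain fewer cells of a type and less RNA per cell cannot be told apart.

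Markers were read on different probes, so their intensities are given as a description and not ranked. The highest intensity of each of the 6 neuronal markers with an event (of 7 listed) lay between 1728 and 12087, those of the 3 astrocyte markers between 1621 and 10330, and that of *Mbp*, the 1 oligodendrocyte marker of 3 with an event, was 11314. The 3 markers of other tissues with an event, of 6 listed, lay between 134 and 284.

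Of the 156 ion channel events, 11 (7.05%) were past the threshold, beside 7.34% of all 12948 events with intensities (950 events). They came from 8 genes, 9.76% of the 82, beside 11.7% of all genes. The median absolute log2 change was 0.17 in ion channel genes and 0.18 over all events, and the 90th percentile was 0.45 in both. Neither share nor median set the ion channel genes apart from the table as a whole. Of 150 events with a sign, 91 (60.7%) were above 0, beside 55.3% of all events, with a median of 0.06 beside 0.03. With each event type centred on its median, 83 of the 150 were above 0. Among the ion channel events past the threshold 6 were above 0 and 4 below 0, and 1 had no sign. Of all 12560 events with a sign, 567 (4.51%) were past the threshold above 0 and 342 (2.72%) below 0. After the same centring 13 ion channel events were past the threshold, 5 above 0 and 7 below 0.

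**Figure D1:**
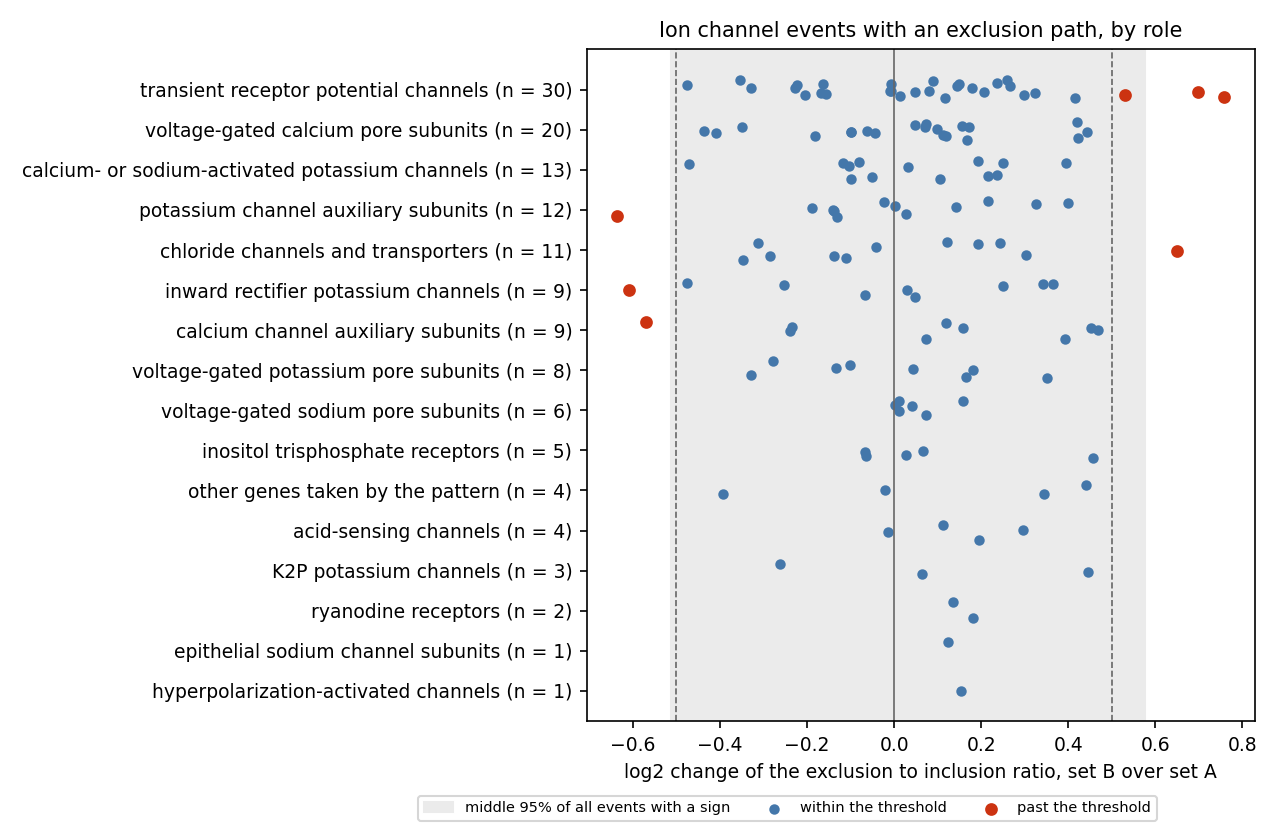
Each point is 1 of 138 ion channel events with an exclusion path, placed on the horizontal axis by the log2 change of its exclusion to inclusion ratio (set B over set A) and on the vertical axis by the role of its gene, with a small vertical offset to separate points. Dashed lines mark the threshold of 0.5 in either direction and grey the middle 95% of all events; 7 points are past the lines, and the highest is in *Trpc2* at 0.76.

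The plot by role shows the points of most families between the lines, with those past it in 5 of the roles drawn. Just past the threshold were *Kcnip1* (−0.53) and the 78-nt event of *Trpc2* (0.53), and just short of it *Kcnj15* (−0.48), an alternative end of *Trpm1* (−0.48) and a retained intron of *Kcnt1* (−0.47). The gap between these values is small, so the order around the threshold carries little. When 50 was added to each intensity, which damps ratios of dim probes, 5 of the 11 stayed past it, among them the larger event of *Trpc2*, *Trpc4* and *Kcnab3*.

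Of the genes with an alternative start event, *Kcnj16* and *Trpc4* are shown with sequence because their start events were past the threshold. *Kcnj16* encodes an inward rectifier potassium channel (Kir5.1) and *Trpc4* a receptor-operated cation channel. RefSeq (GRCm38.p6) annotates 4 start sites for *Kcnj16*, on the plus strand of chromosome 11, and 1 for *Trpc4*, on the plus strand of chromosome 3. The 250 bases before each start are printed 5′ to 3′, and capitals mark the letters TATAAA or TTTATA, the same motif on either strand.
Kcnj16 start 1, chr11:110967783-110968032: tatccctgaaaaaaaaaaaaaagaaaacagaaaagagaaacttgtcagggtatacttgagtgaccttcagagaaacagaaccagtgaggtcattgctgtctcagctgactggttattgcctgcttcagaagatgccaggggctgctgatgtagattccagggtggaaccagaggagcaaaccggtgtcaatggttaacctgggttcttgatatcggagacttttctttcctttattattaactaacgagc
Kcnj16 start 2, chr11:110997237-110997486: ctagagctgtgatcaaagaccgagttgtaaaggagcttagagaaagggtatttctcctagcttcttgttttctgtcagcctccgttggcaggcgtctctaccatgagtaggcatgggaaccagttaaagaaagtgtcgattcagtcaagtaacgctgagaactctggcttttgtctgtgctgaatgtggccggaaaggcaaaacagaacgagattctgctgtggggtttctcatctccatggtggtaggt
Kcnj16 start 3, chr11:111019335-111019584: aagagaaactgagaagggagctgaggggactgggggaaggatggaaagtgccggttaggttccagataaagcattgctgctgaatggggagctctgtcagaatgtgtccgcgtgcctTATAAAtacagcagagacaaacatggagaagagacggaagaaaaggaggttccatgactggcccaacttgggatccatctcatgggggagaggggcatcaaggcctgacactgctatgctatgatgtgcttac
Kcnj16 start 4, chr11:111023610-111023859: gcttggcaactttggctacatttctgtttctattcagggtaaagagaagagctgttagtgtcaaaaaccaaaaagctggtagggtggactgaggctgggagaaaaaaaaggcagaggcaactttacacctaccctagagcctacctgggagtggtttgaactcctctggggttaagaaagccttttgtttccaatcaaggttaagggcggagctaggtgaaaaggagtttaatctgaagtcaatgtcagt
Trpc4 start 1, chr3:54155807-54156056: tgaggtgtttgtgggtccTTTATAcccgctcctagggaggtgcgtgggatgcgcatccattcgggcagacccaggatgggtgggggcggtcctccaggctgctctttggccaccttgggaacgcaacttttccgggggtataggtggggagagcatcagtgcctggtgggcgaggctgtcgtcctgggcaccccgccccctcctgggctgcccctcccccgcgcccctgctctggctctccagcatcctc

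The 4 *Kcnj16* stretches held 3, 7, 4 and 1 CG pairs, and only the third from the left held the motif. The *Trpc4* stretch held 12 CG pairs at a GC content of 66.4%, beside a median of 6 pairs and 52.4% over 32851 such stretches. It had the motif on the opposite strand, near the end of the stretch farthest from the start. Counted at any place and on either strand, 12.4% of all stretches hold the motif, and its function here was not tested. The starts of *Kcnj16* spread over 55827 bases, and its array event spans 56376 bases. The build of the array positions is not given in the sources used here and is not this one: of 150 events whose genes RefSeq lists, 34 overlapped their gene in GRCm38.p6. Array positions below are therefore quoted as the table gives them, and no start is matched to a path. Of the 29 ion channel genes with an alternative start event, 25 had at least 1 such stretch in RefSeq and 15 had at least 2; *Kcnab3* had none in this table.

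Voltage-gated potassium pore subunits gave 17 events in 9 genes, with a median absolute log2 change of 0.18. Past the threshold were 3 events (17.6%, beside 7.34% of all events), all of them in 1 of the 9 genes. *Kcnq3* encodes Kv7.3, a subunit of slow potassium channels that limit repetitive firing, and had 1 complex event at −0.10, with exclusion intensities of 751 and 685 and inclusion intensities of 1344 and 1316. *Kcnc2* encodes Kv3.2, a channel of fast-spiking neurons. Its 1151-nt alternative 3′ splice site stood at −0.33, with exclusion intensities of 618 and 444 and inclusion intensities of 625 and 564, and its 104-nt cassette exon at 0.04. The first of these was dimmer in set B on both paths, and more so on exclusion. The alternative start of *Kcnh2*, an ERG channel gene, stood at 0.35, with exclusion intensities of 206 and 236 and inclusion intensities of 1252 and 1124. *Kcnd3*, which encodes the A-type channel Kv4.3, had a 57-nt cassette exon at −0.28, with exclusion intensities of 1106 and 809 and inclusion intensities of 1270 and 1126. *Kcnh1*, an EAG channel gene, had an 80-nt alternative 5′ splice site at 0.18, *Kcnc4* a 61-nt alternative 3′ splice site at 0.16 and *Kcnh3* a complex event at −0.13.

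Auxiliary subunits of potassium channels gave 13 events in 10 genes, 2 of them past the threshold (15.4%, beside 7.34% of all events). *Kcnab3*, which encodes a cytoplasmic beta subunit of Kv1 channels, had an alternative start at chr11:69139759-69141621. The exclusion path read 347 in set A against 242 in set B, and the inclusion path 155 against 168, a log2 change of −0.64. Most of that difference was in the exclusion path.

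*Kcnip1* encodes a calcium-binding partner of Kv4 channels. Its event at chr11:33545627-33893193 has several paths, each set against a value the paths share (1386 in set A and 1425 in set B), so its values carry no exclusion sign. One path went with 100 and 71 (−0.53), while the others stood at −0.07 and 0.08. Adding 50 brought the first to −0.35. An alternative start of *Kcnip1* listed at the same position stood at only −0.13, with exclusion intensities of 751 and 689 and inclusion intensities of 361 and 363. The alternative start of *Kcnip3* stood at −0.14 and a complex event of *Kcnip4* at −0.02, and *Kcnip2* had no event. A 42-nt cassette exon of *Kcnab2*, another beta subunit, stood at 0.40, with exclusion intensities of 587 and 725 and inclusion intensities of 2155 and 2017.

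**Figure D2:**
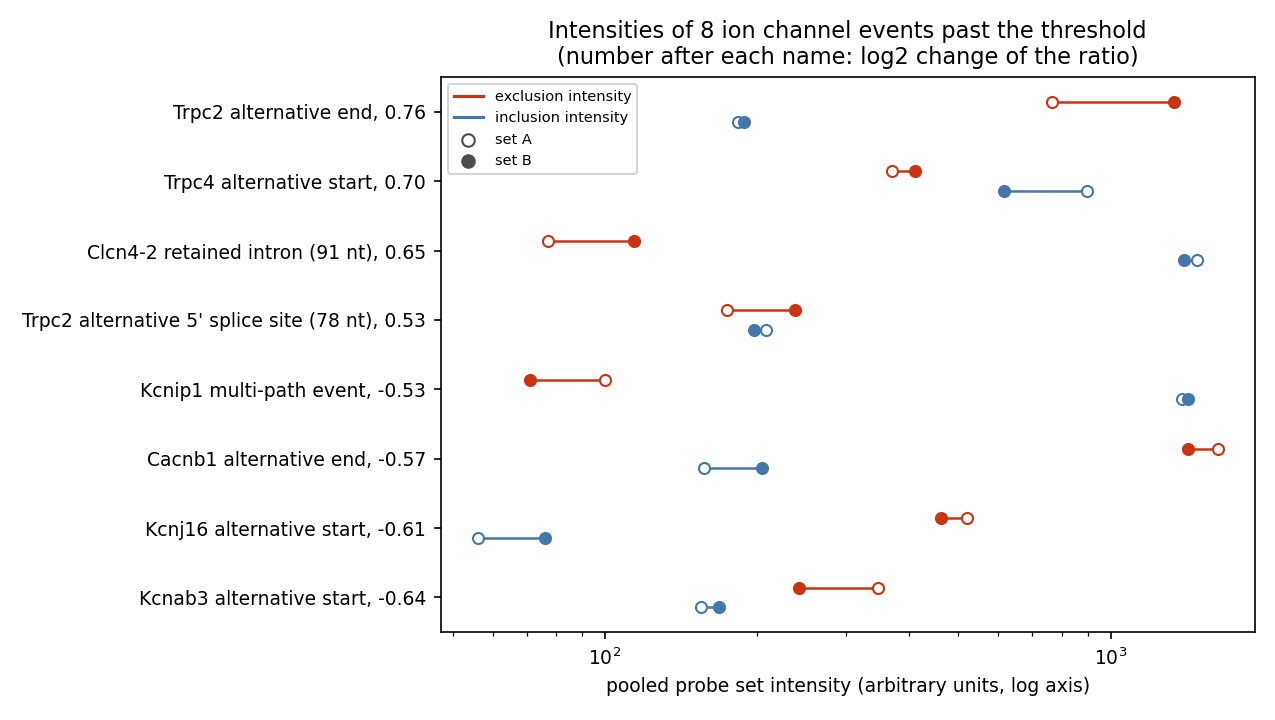
For 8 ion channel events past the threshold, points on a log axis give the pooled exclusion and inclusion intensities in set A (open) and in set B (filled), joined by lines; for *Kcnip1* the inclusion points are the value its paths share. In *Trpc4* the larger difference is in the inclusion path, whereas in *Trpc2* (alternative end) it is in the exclusion path, from 767 to 1333.

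The paired intensities of these 8 events show that the path carrying the difference varied from event to event. Inward rectifiers, which hold the resting potential, gave 10 events in 8 genes with 1 past the threshold. In *Kcnj16* the exclusion intensity of the alternative start at chr11:110829346-110885722 was 519 and 462 and the inclusion intensity 56 and 76, a log2 change of −0.61. The inclusion path sat near the lowest intensity in the table, and with 50 added the change was −0.40. *Kcnj15* had an alternative start at −0.48, again from dim paths (84 and 74, and 124 and 152). *Kcnj6*, a neuronal G-protein-gated channel, had an alternative start at 0.34 and an alternative end at 0.25. It also had a multi-path event without a sign, whose largest change was −0.13.

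Calcium- and sodium-activated potassium channels gave 14 events in 6 genes and 0 past the threshold. *Kcnma1* encodes the BK channel, whose splicing is a classic case of channel diversity. Its cassette exons of 156, 174 and 81 nt stood at −0.10, −0.10 and 0.19 and its alternative end at −0.08. Its alternative start stood at 0.40, with exclusion intensities of 709 and 887 and inclusion intensities of 1166 and 1109. *Kcnt1*, a sodium-activated channel, had a 285-nt retained intron at −0.47 (142 and 104 for exclusion, 270 and 274 for inclusion), a 1988-nt one at 0.24 and a 42-nt cassette exon at 0.22. The 3 events of the K2P channel gene *Kcnk2* (TREK-1) stood at 0.45, −0.26 and 0.06.

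Pore subunits of voltage-gated calcium channels had 20 events in 7 genes, and 0 were past the threshold. Their median absolute log2 change was 0.14, and they ranged from −0.44 to 0.44. *Cacna1a* (P/Q type) had an alternative end at −0.10, with inclusion intensities of 3063 and 2994. *Cacna1b* (N type) had cassette exons of 108 and 97 nt at −0.04 and 0.16. These genes encode the channels of presynaptic terminals, and their ratios in the 2 sets differed by at most 1.11-fold.

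The L-type genes *Cacna1c* and *Cacna1d* each carry a pair of mutually exclusive 104-nt exons. That pair stood at 0.12 in *Cacna1c*, with intensities of 420 and 448 for the first path and 1615 and 1585 for the second, and at −0.06 in *Cacna1d*. The other 3 events of *Cacna1c* lay between −0.10 and 0.17. In *Cacna1d* a 27-nt cassette exon stood at 0.42, with inclusion intensities of 376 and 289 over a dim exclusion path of 66 and 68. A 60-nt cassette exon of the same gene stood at −0.35, with inclusion intensities of 525 and 634. Short exons of 1 gene thus lay on opposite sides of 0. The alternative start of *Cacna1d* stood at 0.44, with inclusion intensities of 1174 and 991 over a dim exclusion path of 61 and 70. With 50 added it stood at 0.35. The T-type gene *Cacna1g* had a 50-nt alternative 3′ splice site at −0.41 (221 and 179 for exclusion, 3810 and 4095 for inclusion), which passed the threshold when alternative 3′ sites were centred on their median.

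Auxiliary calcium channel subunits gave 10 events in 6 genes, with a median absolute log2 change of 0.32. The beta subunits bind the pore subunit in the cytoplasm and bring it to the membrane. In *Cacnb1* an alternative end at chr11:97864214-97866442 had exclusion intensities of 1628 and 1424 and inclusion intensities of 157 and 204, a log2 change of −0.57 and the only one of the 10 past the threshold. With 50 added it stood at −0.48. The alternative start of *Cacnb1* stood at 0.45, where the inclusion path was at 1052 in both sets. *Cacnb3* had retained introns of 155 and 211 nt at 0.39 and 0.47, with intron intensities of 260 and 193 and of 654 and 528. Both introns were dimmer in set B while their exclusion paths stood at 2521 and 2458 and at 1025 and 1145. A multi-path event of *Cacnb2* had a largest change of −0.43, in a path with 259 and 196, while its other paths stood at 0.05 and 0.03. *Cacng8*, an AMPA receptor auxiliary subunit, had an event at 0.16.

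Sodium channel pore subunits gave 8 events in 5 genes, with a median absolute log2 change of 0.06 and 7 of 8 above 0 (5 when centred). *Scn1a*, the gene of Dravet syndrome, had an alternative end at 0.07, and the mutually exclusive 92-nt exons of *Scn8a* stood at 0.04. In *Scn8a* both paths were dimmer in set B, at 543 and 472 and at 289 and 244, so that the ratio stayed close to 0. The 3 events of *Scn3a* lay between 0.01 and 0.16. *Scn2a1* had no event. *Scnn1g*, a subunit of the epithelial sodium channel, stood at 0.12, and *Hcn3*, a pacemaker channel, had a 241-nt cassette exon at 0.15.

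Chloride channels and transporters gave 11 events in 6 genes, 1 past the threshold. *Clcn4-2* encodes the chloride-proton exchanger ClC-4 and had a 91-nt retained intron at chr7:7244437-7244530. Its exclusion intensities were 77 and 114 and its intron intensities 1480 and 1396, a log2 change of 0.65. The exclusion path was dim, and with 50 added the change was 0.45. Another retained intron of the gene, of 823 nt, stood at 0.12. The 5 events of *Clcn3*, an endosomal exchanger, lay between −0.31 and 0.24 and held both directions.

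Transient receptor potential channels, cation channels of sensory and receptor-driven signalling, gave 32 events in 11 genes, with 3 past the threshold. That is 9.38% of these events, beside 7.34% of all events. *Trpc2* encodes the transduction channel of the vomeronasal organ. Its alternative end at chr7:109231532-109232374 had exclusion intensities of 767 in set A and 1333 in set B, with inclusion at 183 and 188. The log2 change of 0.76, rank 142, was the largest above 0 among ion channel events and lay almost wholly in the exclusion path. A 78-nt alternative 5′ splice site of *Trpc2* at chr7:109227332-109227518 had exclusion intensities of 174 and 238 and inclusion intensities of 208 and 197, a log2 change of 0.53. With 50 added it stood at 0.43. *Trpc2* was 1 of 2 ion channel genes with at least 2 events past the threshold, of 32 with at least 2 events, beside 1.25% of all such genes. A gene with more events has more chances to reach 2, and the number of events per gene was not matched in these shares. Further *Trpc2* events stood at 0.42, 0.30, 0.27 and −0.01, with a median of 0.36 over the 6 with a sign. Of these, a 46-nt cassette exon (0.42) has a span that contains the alternative end event and ends at the same base. Its exclusion intensities were 565 and 698 and its inclusion intensities 162 and 150. Its inclusion path was thus slightly dimmer in set B, whereas the exclusion path of the alternative end was brighter. Whether these paths share a junction was not examined, so the events are not taken as independent.

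In *Trpc4* the alternative start at chr3:53960025-53998574 had exclusion intensities of 370 and 411 and inclusion intensities of 896 and 614, a log2 change of 0.70 and rank 214. The inclusion path carried most of it. *Trpm3*, a heat- and steroid-sensitive channel, had 7 events with a sign between −0.17 and 0.32, and *Trpm1*, the channel of retinal ON bipolar cells, had 6 between −0.48 and 0.24. No event of either was past the threshold. In *Trpm4*, a calcium-activated cation channel, a pair of adjacent exons had both paths brighter in set B, from 645 to 1024 for exclusion and from 181 to 240 for inclusion, with a ratio at 0.26.

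Intracellular calcium release channels had 0 events past the threshold. *Itpr1*, the receptor of cerebellar Purkinje cells, had a 48-nt cassette exon at 0.46, the highest among ion channel cassette exons, where the exclusion intensity was 336 and 461 and the inclusion intensity 916 in both sets. Its 45-nt cassette exon stood at 0.07, with intensities of 4275 and 4756 and of 3095 and 3289. The 3 events of *Itpr2* lay between −0.07 and 0.03. *Ryr2* and *Ryr3* had alternative ends at 0.18 and 0.14, and *Ryr1* had no event. Among acid-sensing channels, 4 events in 3 genes ranged from −0.01 (*Accn1*) to 0.30 (*Accn2*). The genes taken by symbol alone had 4 events, 0 past the threshold, of which a 195-nt cassette exon of *Scnm1*, a splicing factor gene, stood highest at 0.44.

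Pore-forming subunits as a whole had 8 of 128 events past the threshold (6.25%) and the other genes 3 of 28 (10.7%), beside 7.34% of all events, and the difference between these shares was not tested. Of the 16 genes with at least 3 events with a sign, 15 had events on both sides of 0. The exception was *Scn3a*, with 3 of 3 above 0 (2 when centred). The same share over all genes was not computed, so the count is not read as a trait of ion channel genes.

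By kind of event, cassette exons of ion channel genes had a lower median absolute log2 change than cassette exons at large, a difference that was not tested. None of 45 was past the threshold, beside 8.56% of 3763 cassette exons in the table, and the medians were 0.14 and 0.19. The ion channel exons were read on brighter probes: the lowest intensity of an event had a median of 241, beside 171 over all cassette exons. Dimmer events were past the threshold more often in the table, and the part of brightness in this difference was not tested. The 25 exons whose length is a multiple of 3, a length that can keep the reading frame, had a median of 0.13, beside 0.18 over 1990 such exons of all genes. Whether these exons are coding was not examined. The 20 others had 0.16 beside 0.20 over 1748. The 14 exons of up to 60 nt had a median absolute change of 0.20, slightly above the 0.18 of all such exons, and the 31 longer ones 0.11, below the 0.19 of all longer exons. Of the 14 short exons 10 were above 0 (9 when centred).

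**Figure D3:**
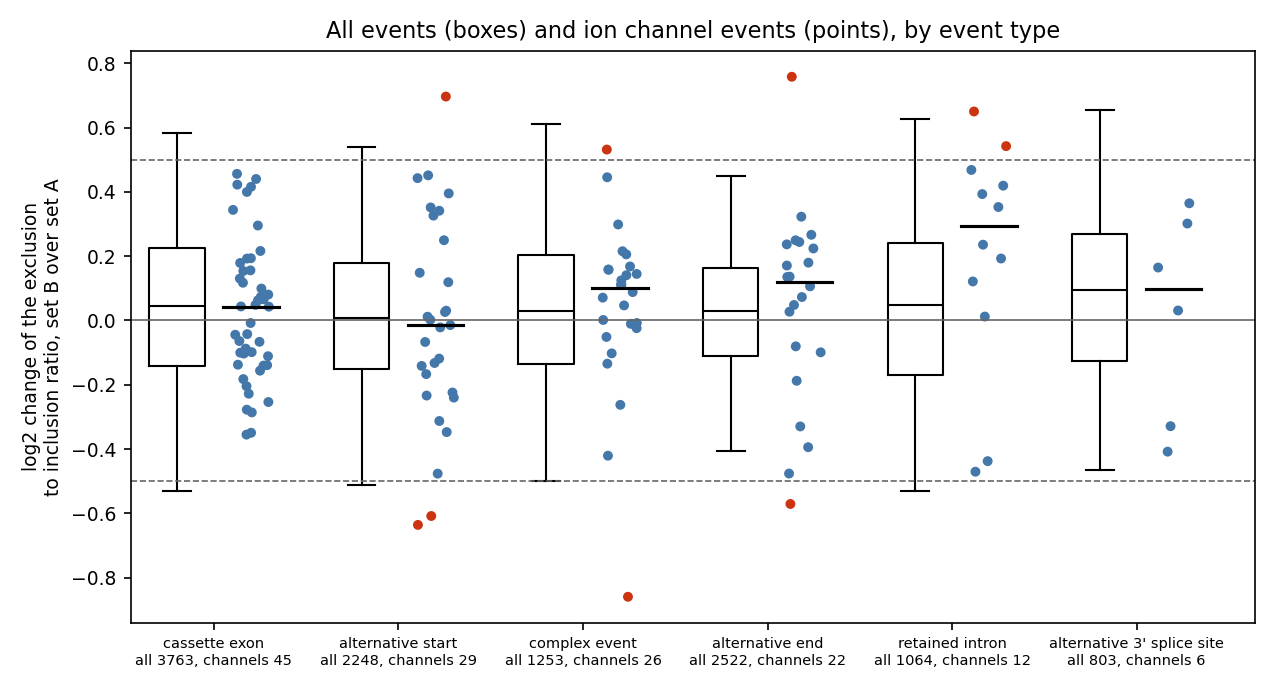
For the 6 kinds with most ion channel events, points give the log2 change of the exclusion to inclusion ratio (vertical axis, set B over set A) of each ion channel event, red where past the dashed threshold of 0.5, with a bar at their median, beside a box plot of all events of the kind (median, quartiles, and whiskers over the middle 95%). Cassette exons stay within the lines, with the highest at 0.46, and the retained introns have a signed median of 0.29.

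The plot by kind of event shows retained introns as the kind whose ion channel members lay highest relative to all events of the kind. Their 12 introns, in 7 genes, had a median absolute log2 change of 0.41, beside 0.22 over 1064 retained introns of all genes. They were read on dimmer probes: the lowest intensity of an event had a median of 149.5, beside 169 over all retained introns. The part of brightness in this difference was not tested. Of the 12, 10 were above 0, meaning a lower share of intron in set B, beside 56.1% of all retained introns. The signed medians were 0.29 and 0.05. The 2 below 0 were the 146-nt intron of *Cacna1f* (−0.44), a retinal L-type gene, and the 285-nt intron of *Kcnt1* (−0.47), and each of these genes had another intron above 0, at 0.42 and 0.24. Past the threshold were 2 of 12, *Clcn4-2* among them, beside 9.87% of the kind. With all retained introns centred on their median, 9 were above 0. Introns of 1 gene share a transcript, so the 12 are not independent.

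Alternative starts had 3 of 29 past the threshold (beside 6.32% of the kind), alternative ends 2 of 22 (beside 2.78%) and complex events 2 of 26 (beside 8.38%). Alternative 5′ splice sites had 1 of 4 (beside 10.8%) and multi-path events 1 of 6 (beside 10.6%). Alternative 3′ splice sites (6 events, beside 9.09%), mutually exclusive exons (4 events, beside 1.69%) and paired cassette exons (2 events, beside 10.5%) had 0. At these numbers a single event decides each share.

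Where both paths of an event differ the same way, the ratio stays near 0 although both are brighter or dimmer. This measure was added after the values were seen, with a limit of 0.25 on the log2 scale for each path. Both paths were brighter in set B in 4 ion channel events, beside 3.1% of all events. Among them were the *Trpm4* exon pair, an 86-nt exon of *Trpm1* (447 and 571, 313 and 402) and the alternative start of *Itprip* (327 and 409, 230 and 292). Both were dimmer in 2, beside 1.78%, among them a complex event of *Cacna1c* (407 and 333, 103 and 75).

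**Figure D4:**
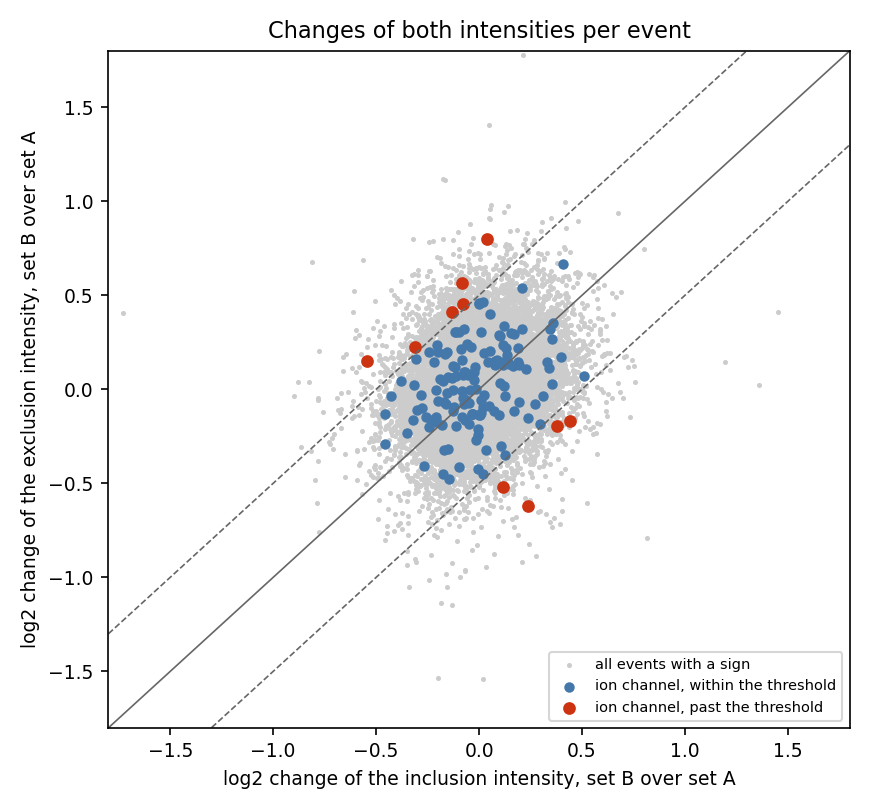
Each point is an event, with the log2 change of its inclusion intensity (set B over set A) on the horizontal axis and that of its exclusion intensity on the vertical axis, grey for all events and coloured for ion channel events. The solid line marks equal changes and the dashed lines the threshold of 0.5 on the ratio; 10 ion channel events are outside them, and *Trpm4* is the point farthest along the upper right.

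The plot of both paths shows the ion channel events inside the cloud of all events. Events with a dim path were past the threshold more often in the table: by the lowest of an event's 4 intensities, 9.74% of the dimmest part (126 or less), 7.15% of the middle part (up to 241) and 5.10% of the brightest part were. Ion channel events had 3 of 45, 5 of 47 and 3 of 64 in the same parts. The part of dim probes in the values of *Clcn4-2*, *Kcnip1* and *Kcnj16*, which have a path under 100, was not tested, and without events holding an intensity under 100 these 3 drop out and 8 of 125 are past the threshold.

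Genes that work with the channels were taken from a list of 49 binding partners and scaffolds. Of these, 32 had 96 events, and 3 (3.13%) were past the threshold, beside 7.34% of all events, with a median absolute log2 change of 0.16. A complex event of *Camk2b*, a calcium-dependent kinase, stood at −0.60 (468 and 325 for exclusion, 4973 and 5238 for inclusion), and a 78-nt cassette exon of *Rims2*, an active zone protein that binds calcium channels, at −0.53 (107 and 70, 372 and 351). A list of 31 splicing regulators of neuronal exons had 18 genes with 46 events, of which 6 (13.0%) were past the threshold, beside the same 7.34%, with a median of 0.16. Its largest were an alternative start of *Mbnl1* at −0.68 (1471 and 1215, 152 and 201) and a 136-nt cassette exon of *Hnrnpa2b1* at 0.64 (69 and 94, 691 and 605). Neither list had a median above that of all events.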

How the data were processed

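Total brain RNA of 6 mice, 3 of each *Nxf1* genotype, was labelled and hybridized to Affymetrix MJAY arrays. Exclusion and inclusion intensities were pooled by the authors over the arrays of each set and deposited as whole numbers. The submitters' processing notes name Affymetrix Power Tools; background correction, normalization and genome build are not given in the sources used here, and pooling hides each animal's values. The table also holds the authors' scores and q-values for a paired and a standard comparison, which were not used. Its intensities did not differ between those comparisons for any of 26304 paths.

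For each path the log2 change was log2(exclusion/inclusion) in set B minus that in set A, and an event took its path with the largest absolute change, with a threshold of 0.5. Events whose paths carry no exclusion name had no sign. No filter on dim probes was applied, and the number of arrays limits the precision. Named were the events past the threshold, the largest event of each role, and those of a fixed list of neuronal channel genes; further members given as examples were chosen after their values were seen. Results of some genes are counted in totals and not reported here by name or in the plots of values by role and of intensities. Members, lists and rules were chosen with earlier results of these data known. Promoters came from RefSeq GRCm38.p6 (300-base windows, of which the 250 bases before the start were used), and 59 of the 82 genes had one. The alternatives were other thresholds, an added offset, centring by event type, a minimum intensity, other path choices and narrower gene sets. Scripts were tested on simulated data and run in Python 3.11.15 with numpy 2.4.6, pandas 2.3.3 and matplotlib 3.10.9.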

Additional observations from a re-analysis of the deposited data

How the results depend on the processing

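The table holds values pooled over each set, so no error between animals can be given and dim probes are the least certain. No paired analysis was possible because only intensities pooled over each set were used, the authors' own paired scores being left aside, and leaving out a replicate and a replicate block were not run for the same reason. At a threshold of 0.3, 46 ion channel events and 3371 of all events were past it, and at 1, 0 and 29. With 50 added to each intensity there were 5 and 412, with a median absolute change of 0.14 in ion channel genes. Without events holding an intensity under 100 the median was 0.16 (8 events past the threshold, and 667 of all events), and centred by event type also 0.16 (13 and 916). In voltage-gated families with their auxiliary subunits 6 events were past the threshold. The first exclusion path of each event gave 11 and events with exactly 2 paths 10. Of 51 named events, 51 kept their sign with the offset and 50 when centred, the exception being a value near 0.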
